A study of Mus musculus with 79 samples.

Results

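Matricellular proteins are secreted into the extracellular matrix but act mainly as signals rather than as structural fibres. The thrombospondins, tenascin-C, periostin, SPARC and osteopontin bind collagens, growth factors and cell surface receptors such as integrins, CD47, CD36 and CD44, and many of them are low in resting adult tissue and high after injury. In a cut peripheral nerve, macrophages, fibroblasts and repair Schwann cells lay down a new matrix in the bridge between the stumps, and this matrix guides the Schwann cell cords and axons that cross it. The 10 genes described here are the 4 thrombospondin genes Thbs1, Thbs2, Thbs3 and Thbs4, the fifth member Comp, and Tnc, Fn1, Postn, Sparc and Spp1. They were taken by gene symbol, and each of the 10 was present among the 23361 genes of the count tables.

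The mice were S100β-eGFP animals, in which the human S100β promoter drives green fluorescent protein, and both sexes were used. The freshly cut common peroneal nerve was sutured to the tibial stump inside a silicone conduit, either at once (immediate) or 8 weeks after the tibial nerve had been cut (delayed), and immediate animals had a sham incision 8 weeks before repair. Macrophages (F4/80+, CD14+, CD16/32+, CD11b+) and Schwann cells (GFP+, negative for the other sorted markers) were sorted from the bridge at day 5 or day 14, 1000 cells a library, and the distal stump was sequenced whole at day 5. Both sorts left out cells that stained for Thy1.2, used as the fibroblast marker, for the endothelial marker CD31, or for lymphocyte, granulocyte and red cell markers. The 79 libraries came from 32 animals, 15 of which gave all 3 kinds, with 7 to 9 libraries in each of the 10 groups. The age of the animals is not given in the sources used here.

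Total counts ran from 3898778 to 9212709 in the 16 stump libraries, from 14928745 to 28499407 in the 32 macrophage libraries and from 11614940 to 30796823 in the 31 Schwann cell libraries. In the smallest library of each kind, 3 counts equalled 0.769, 0.201 and 0.258 CPM (the count divided by the library total and scaled to a common depth), which is the level that a count of 0 allows. The macrophage label held against the Schwann cell libraries: the 7 macrophage markers measured summed to 9090 CPM or more in every macrophage library and to 4658 CPM or less in every Schwann cell library. Dendritic cell markers summed to 1036 to 4706 CPM in day 5 macrophage libraries and to 6856 to 17840 CPM in day 14 ones. They exceeded the macrophage markers in delayed day 14 replicate 4 (17840 against 11580 CPM) and in immediate day 14 replicates 3, 4 and 7. The Schwann cell label held less well. The 8 Schwann cell markers summed to 4.28 to 2154 CPM in the sorted Schwann cell libraries, whereas 8 dendritic cell markers summed to 17060 to 39180 CPM in the same libraries, and S100b itself averaged 1.96 to 18.02 CPM over the 4 groups. These libraries are therefore called the Schwann cell fraction, and because all 31 carried the dendritic cell markers no comparison without them could be made.

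Sparc, Postn and Tnc were higher at day 14 than at day 5 in the Schwann cell fraction of 1 repair group or both, and Spp1 was lower in 1, so the sequence just upstream of 1 transcript start of each is shown. Each is the 250 bases before a RefSeq transcript start (GRCm38.p6), read 5′ to 3′ on the strand of the gene, with matches on either strand to the TATA box TATAAA, the AP-1 site TGANTCA and the RUNX site ACCACA in capitals. Postn is on the plus strand at chr3:54360857-54361106, Spp1 on the plus strand at chr5:104434861-104435110, Tnc on the minus strand at chr4:64047016-64047265 and Sparc on the minus strand at chr11:55420081-55420330.
Sparc: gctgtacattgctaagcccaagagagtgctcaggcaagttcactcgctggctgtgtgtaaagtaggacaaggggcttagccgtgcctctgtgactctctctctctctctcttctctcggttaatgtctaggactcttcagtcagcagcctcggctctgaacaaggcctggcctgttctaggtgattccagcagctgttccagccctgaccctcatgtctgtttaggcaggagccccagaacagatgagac
Postn: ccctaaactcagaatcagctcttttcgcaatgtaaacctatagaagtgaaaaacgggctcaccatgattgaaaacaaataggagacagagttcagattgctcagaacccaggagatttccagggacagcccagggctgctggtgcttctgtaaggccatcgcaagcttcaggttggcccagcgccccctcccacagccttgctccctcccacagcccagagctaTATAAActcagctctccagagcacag
Tnc: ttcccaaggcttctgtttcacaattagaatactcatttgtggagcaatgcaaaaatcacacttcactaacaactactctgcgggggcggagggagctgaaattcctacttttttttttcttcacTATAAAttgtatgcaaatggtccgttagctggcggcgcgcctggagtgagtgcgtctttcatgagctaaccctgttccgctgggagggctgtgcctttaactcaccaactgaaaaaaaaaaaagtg
Spp1: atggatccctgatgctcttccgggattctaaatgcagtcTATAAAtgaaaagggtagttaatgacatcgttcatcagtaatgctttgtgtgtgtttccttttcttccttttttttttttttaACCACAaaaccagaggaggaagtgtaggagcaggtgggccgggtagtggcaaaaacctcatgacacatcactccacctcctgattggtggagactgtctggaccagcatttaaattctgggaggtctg
Postn had TATAAA 26 bases before the start, Tnc had it 126 bases before, and Spp1 had it 211 bases before together with ACCACA 128 bases before. Sparc had none of the 3 motifs in this window, which lies inside the annotated gene. Another RefSeq start of Postn and another of Spp1, not shown, had none of the 3 motifs either. Another start of Tnc, also not shown, had TATAAA 205 bases before it. Of 32851 promoters of the same length, 12.4% held TATAAA, 6.75% TGANTCA and 14% ACCACA, and a match is a description of letters only. Thbs1, Fn1 and Comp were not matched in the RefSeq promoter table.

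The genes lie on 9 chromosomes of GRCm38 (mm10) by the GENCODE M21 annotation: Thbs1 at chr2:118111876-118127133, Thbs2 at chr17:14665500-14694235, Thbs3 at chr3:89215180-89226837, Thbs4 at chr13:92751590-92794818, Comp at chr8:70373558-70382066, Tnc at chr4:63959785-64047015, Fn1 at chr1:71585520-71653200, Postn at chr3:54361109-54391037, Sparc at chr11:55394500-55423183 and Spp1 at chr5:104435118-104441050. The values are summed over exons. Of the 50-base stretches in their transcripts, 11.6% for Spp1 also occur in Gm42793, 3.54% for Thbs3 in Mtx1 on the opposite strand and 1.89% for Thbs1 in Gm29233, so reads there could be split between genes. Fn1, Sparc and Tnc shared 3%, 1.1% and 1.04% with other genes, and Thbs2, Thbs4, Comp and Postn shared none.

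**Figure D1:**
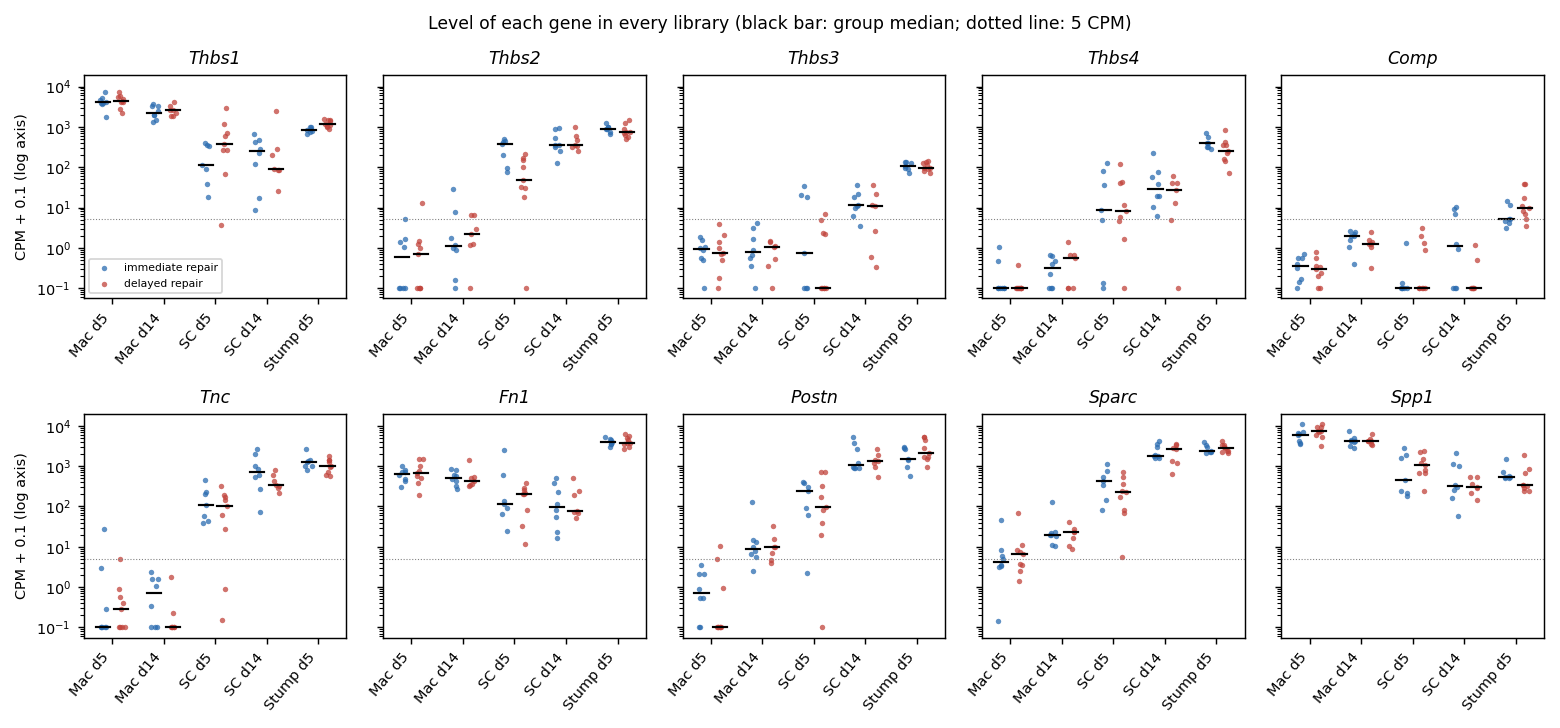
Level of each of the 10 genes in every library, as CPM + 0.1 on a log axis, by cell type and day, with immediate repair in blue, delayed repair in red and a black bar at each group median. Thbs1 and Spp1 sit highest in the macrophages, Tnc, Thbs2, Thbs3 and Thbs4 lie under the dotted 5 CPM line in most macrophage libraries, Sparc has group medians of 4.10 to 22.8 CPM there, and Comp is low throughout.

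The first question was which cells carried each gene. In the macrophages 3 members were abundant. Thbs1, a trimeric thrombospondin that activates latent TGF-beta and binds CD36 and CD47, had a median of 4388 CPM in delayed day 5 macrophages (2215 to 7288) and 4070 CPM in immediate ones (1780 to 7298). Spp1, which encodes osteopontin, a ligand of CD44 and integrins made by activated macrophages, had medians of 7344 CPM (3093 to 11100) and 6087 CPM (3587 to 10890). Fn1, the fibronectin gene, had medians of 681.5 and 645.8 CPM in the same groups. Per kilobase of exon, the order of mean levels in every macrophage group was Spp1, Thbs1, Fn1, Sparc, and in delayed day 5 macrophages these means were 4490 ± 1476, 752.5 ± 253.9, 67.7 ± 40.1 and 3.33 ± 5.67 CPM per kb (SD, n = 9), so the first 3 lay further apart than their SDs and the last did not lie clear of 0. Thbs4, the tendon- and muscle-rich thrombospondin, had 0 counts in 14 of the 17 day 5 macrophage libraries and at most 0.942 CPM in the others. Comp, Tnc and Thbs3 had group medians of 1.86 CPM or less in the macrophages.

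In the Schwann cell fraction Spp1 had the highest mean level per kilobase at day 5, at 721.5 ± 431.9 CPM per kb (SD, n = 9) after delay and 642.6 ± 642.6 (SD, n = 7) after immediate repair. Next after delay came Thbs1 at 117.4 ± 151.5 and Sparc at 71.4 ± 62.5 CPM per kb, which did not differ beyond their spread. Sparc, a collagen-binding protein that controls matrix assembly, had medians of 224.5 and 432.3 CPM at day 5 (delayed, immediate) and 2722 and 1829 CPM at day 14. At day 14 Postn (periostin, an integrin ligand that takes part in collagen cross-linking) had medians of 1306 and 1082 CPM, Tnc (tenascin-C, an anti-adhesive glycoprotein of wounds) 331.3 and 727.3 CPM and Thbs2 (a close relative of Thbs1) 364.2 and 356.5 CPM. The low pentameric members stayed low, with day 14 medians of 26.5 and 28.9 CPM for Thbs4, 10.8 and 11.2 CPM for Thbs3 and 0 and 0.983 CPM for Comp. At day 14 after immediate repair Sparc had 640.4 ± 275.6 CPM per kb and Spp1 410.9 ± 429.9 (SD, n = 8), which did not differ beyond their spread. In the delayed day 14 group Sparc was at 593.5 ± 305.2 CPM per kb (SD, n = 7), ahead of Spp1 at 208.5 ± 91.3 and Postn at 166.1 ± 81.5, and the last pair did not differ beyond their spread.

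All 8 members tested differed between the Schwann cell fraction and the macrophages at day 5 by edgeR's quasi-likelihood test, where 65.3% of all genes tested did, and all 9 tested did at day 14, where 64.7% did. Sparc was higher in the Schwann cell fraction, by a log2 fold change of 4.76 (SE 0.63, adjusted p = 5.89e-08) at day 5 and 6.09 (SE 0.38, adjusted p = 7.99e-15) at day 14. Within animals that gave both libraries, Sparc was higher in the Schwann cell fraction in 16 of 16 animals at day 5 and 15 of 15 at day 14. Postn was higher by log2 6.98 (SE 0.92) and 6.31 (SE 0.54), Tnc by 6.06 (SE 1.011) and 9.93 (SE 0.70), Thbs2 by 6.41 (SE 0.87) and 6.52 (SE 0.67) and Thbs4 by 8.13 (SE 1.09) and 6.60 (SE 0.78). Where the macrophage level was near 0, as for Thbs4 and Tnc, the size of these fitted values depends on a few reads. Thbs3 was tested at day 14 only and was higher in the Schwann cell fraction by 3.32 (SE 0.62).

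The other 3 members were higher in the macrophages. Thbs1 was lower in the Schwann cell fraction by log2 -3.76 (SE 0.55, adjusted p = 3.34e-07) at day 5 and -3.26 (SE 0.55, adjusted p = 4.85e-06) at day 14, Spp1 by -2.77 (SE 0.36) and -3.56 (SE 0.35), and Fn1 by -1.55 (SE 0.48) and -2.05 (SE 0.39). Thbs1 and Spp1 were higher in the macrophages of every animal, 16 of 16 and 15 of 15, and Fn1 in 14 of 16 and 14 of 15. The Schwann cell fraction carried macrophage markers as well, at 205 to 4658 CPM summed in delayed day 5 libraries and 113 to 1744 in immediate ones, and 8 fibroblast markers at 16.4 to 20000 CPM over all its libraries against 4.48 to 1273 CPM in the macrophages. Their part in the levels of the members in this fraction was not tested. Leaving out the 3 macrophage libraries with the most fibroblast marker RNA kept all 17 calls, and left the fibroblast marker RNA of the Schwann cell fraction as it was. Among a list of 26 receptors of these proteins, 6 were higher and 12 lower of 20 tested at day 5, and 9 were higher and 11 lower of 21 tested at day 14, beside the 65.3% and 64.7% of all genes that differed. They were led at day 14 by Itga3 (log2 9.55, higher) and by Cd36 (-3.86) and Lrp1 (-2.88), both higher in macrophages. Among 25 further matricellular genes, 6 were higher and 3 lower of 9 tested at day 5, and 10 were higher and 2 lower of 14 tested at day 14, beside the same shares of all genes. They were led at day 14 by Lgals3 (-2.25), Fstl1 (4.25) and Smoc2 (7.81).

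The second question was whether delay altered the members. In the distal stump 1 of the 10 was past the threshold, beside 26.3% of all genes tested. Thbs1 had a lowest, median and highest value of 909, 1159 and 1593 CPM in the 9 delayed stumps and of 673, 856 and 992.5 CPM in the 7 immediate stumps. All but 1 of the delayed stumps lay above the highest immediate stump, so the ranges overlapped through that library. The means were 1242 ± 251 and 849 ± 114 CPM (SD), a log2 fold change of 0.57 (SE 0.13), and the adjusted p was 0.00335 by edgeR's quasi-likelihood test. The call was kept in each of the 16 fits without a library, with log2 fold changes of 0.51 to 0.62. Delayed males (909 to 1593 CPM) and delayed females (1000 to 1487 CPM) covered much the same range.

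The other 9 members did not pass in the stump. Comp, a cartilage and tendon thrombospondin, had a median of 9.51 CPM (3.30 to 39.2) in delayed and 5.02 CPM (2.93 to 14.3) in immediate stumps, with a log2 fold change of 1.23 (SE 0.52, adjusted p = 0.0888 by edgeR and 0.0465 by DESeq2). The 2 highest delayed stumps for Comp were also those with the most skeletal muscle marker RNA, at 2145 and 203 CPM summed against 1.74 to 42.1 CPM in the other stumps, and 3 delayed stumps, those 2 and 1 other, had the most tenocyte marker RNA, at 48.3, 69.2 and 75.8 CPM summed. Of the 2 tenocyte markers tested, Mkx was higher after delay (log2 0.94). The part of muscle and tendon cells in the Comp value was not tested. Without delayed replicate 5 the Comp value was 0.91 (adjusted p = 0.176), and without immediate replicate 4 it was 1.53 (adjusted p = 0.0435). Postn had a median of 2066 CPM in delayed and 1488 CPM in immediate stumps (log2 0.65, SE 0.41, adjusted p = 0.252). For Fn1, Sparc, Thbs2 and Thbs3 the log2 fold change lay between -0.08 and 0.10, with 95% intervals from -0.33 to 0.47, -0.29 to 0.48, -0.53 to 0.38 and -0.39 to 0.34. Tnc was at log2 -0.28 (SE 0.27), Spp1 at -0.26 (SE 0.42) and Thbs4 at -0.41 (SE 0.39). With each library left out in turn, Tnc ran from -0.40 to -0.04 (without immediate replicate 7), Thbs4 from -0.77 (without delayed replicate 8) to -0.25 (without immediate replicate 6), and Spp1 from -0.74 (without delayed replicate 1) to 0.05 (without immediate replicate 2). The median over the 10 members was 0.02, as it was over all genes tested.

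Cell markers in the stump moved with the repair group. The Schwann cell markers summed to a median of 277 CPM (95.8 to 830) in delayed and 2456 CPM (1341 to 3226) in immediate stumps, and all 8 were lower after delay. Of the endothelial markers 5 of 6 were higher, of the mural cell markers 4 of 6 were higher and 1 was lower, of the dendritic cell markers 4 of 8 were higher and of the macrophage markers 2 of 7 were higher. None of the 8 fibroblast markers and none of the 3 platelet markers tested passed. In whole tissue, fewer cells of a type and less RNA per cell cannot be told apart, and the part of these markers in the Thbs1 difference was not tested. Beside the 26.3% of all genes that passed, 20 of the 25 further matricellular genes were tested, of which 1 was higher and 3 lower, the smallest p-values being those of Spock1 (log2 -4.70), Lgals3 (-1.87) and Ctgf (0.75). Among the 26 receptors 24 were tested, of which 7 were higher and 3 lower beside the same 26.3%, led by Itgb8 (-2.96), Cd47 (0.71), a receptor of thrombospondin-1, and Itga4 (0.71).

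In sorted cells no member passed for repair. Among macrophages 0 of 4 members tested passed at day 5 (0.0357% of all genes tested) and 0 of 5 at day 14 (0%), and no member had an unadjusted p under 0.05, as 5.17% and 2.21% of all genes had. Thbs1 differed by log2 -0.01 (95% interval -0.53 to 0.50) at day 5 and 0.13 (-0.40 to 0.65) at day 14, and Spp1 by 0.20 (-0.33 to 0.72) and 0.01 (-0.40 to 0.41). Fn1 was at log2 0.21 (SE 0.31) at day 5 and 0.07 (SE 0.30) at day 14, Sparc at 0.24 (SE 0.80) and -0.49 (SE 0.49), and Postn, tested at day 14, at -0.90 (SE 0.72). In the Schwann cell fraction 0 of 8 passed at day 5 (0% of all genes) and 0 of 9 at day 14 (0%). At an unadjusted p under 0.05 there were 2 members at day 5, where 5.26% of all genes reached it, and 1 at day 14, where 3.65% did. Thbs1 at day 5 had a median of 379.1 CPM (3.53 to 2977) after delay and 115.8 CPM (17.96 to 391.6) after immediate repair, a log2 fold change of 1.91 (SE 0.89, adjusted p = 0.913 by edgeR). The highest Thbs1 library there, delayed replicate 9, was also the one with the most macrophage and platelet marker RNA of this fraction (4658 and 1024 CPM), whose part in it was not tested, and without it the value was 1.199. In that comparison Thbs2 lay in the other direction, with medians of 47.5 and 369.9 CPM (adjusted p = 0.884 by edgeR). The Schwann cell markers there summed to medians of 97.5 CPM after delay and 473.7 CPM after immediate repair, and the macrophage markers to 1518 and 426.1 CPM. None of these markers passed, and their part in the member values was not tested. At day 14 the member under 0.05 unadjusted was Tnc, with medians of 331.3 CPM after delay and 727.3 CPM after immediate repair (adjusted p = 0.998 by edgeR). Of the other members at day 5, Fn1 was at log2 -1.40 (SE 0.82), Sparc at -0.88 (SE 0.65), Tnc at -0.53 (SE 0.89), Thbs4 at -0.52 (SE 1.27), Postn at 0.17 (SE 0.98) and Spp1 at 0.03 (SE 0.61). At day 14, Thbs4 was at log2 -1.03 (SE 0.85), Spp1 at -0.94 (SE 0.56), Thbs1 at 0.79 (SE 0.92), Postn at -0.55 (SE 0.41), Thbs3 at -0.33 (SE 0.76), Sparc at -0.17 (SE 0.31), Thbs2 at 0.02 (SE 0.35) and Fn1 at 0.0034 (SE 0.66). DESeq2 passed no member in either cell type at either day. The plot of the repair comparison shows these intervals.

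**Figure D2:**
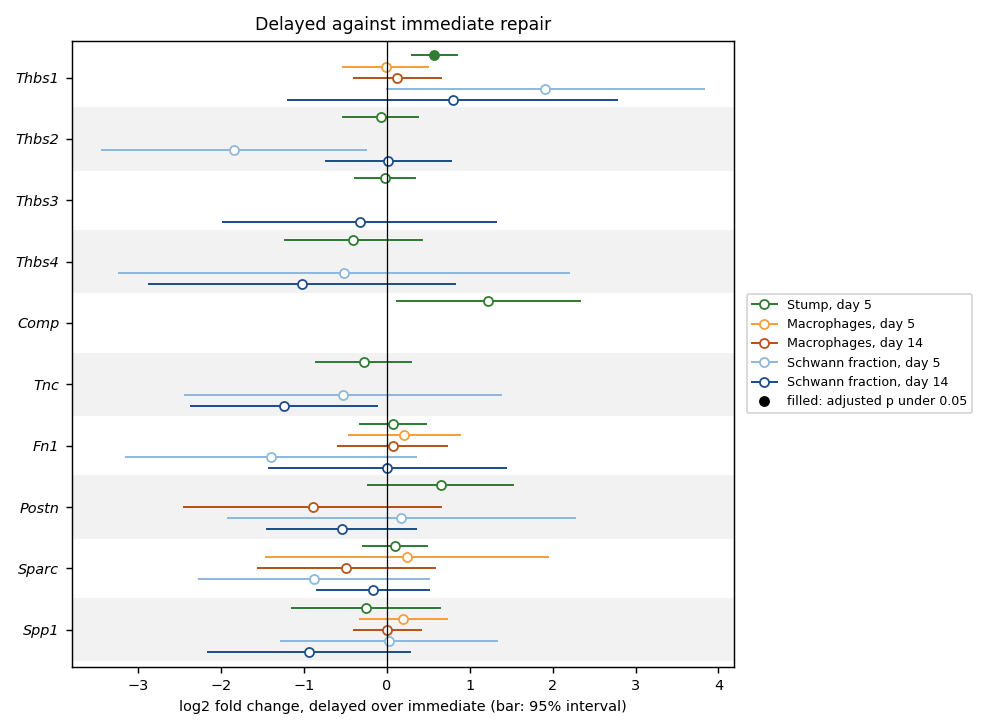
Log2 fold change of delayed over immediate repair for each member, with 95% intervals, for the day 5 stump and for both sorted fractions at each day, with filled points where the adjusted p is under 0.05 and no point where the gene was too low to test. The one filled point is Thbs1 in the stump at 0.57.

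The third question was how the members moved between day 5 and day 14. In macrophages Thbs1 fell. After immediate repair its lowest, median and highest values were 1780, 4070 and 7298 CPM at day 5 and 1326, 2199 and 3785 CPM at day 14, and after delay 2215, 4388 and 7288 CPM and 1904, 2573 and 4033 CPM. All 8 and all 7 day 14 libraries lay below the day 5 median of their group, although the ranges overlapped. The log2 fold changes were -0.98 (SE 0.26, adjusted p = 0.02) after immediate repair and -0.85 (SE 0.23, adjusted p = 0.029) after delay. After delay the call was lost when delayed day 5 replicate 6 or delayed day 14 replicate 2, 3, 7 or 8 was left out (adjusted p up to 0.0653).

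Spp1 in macrophages passed after delay and had a value of the same sign after immediate repair. Delayed macrophages had 3093, 7344 and 11100 CPM at day 5 and 3326, 4243 and 6418 CPM at day 14 (log2 -0.82, SE 0.22, adjusted p = 0.0308), and immediate ones had medians of 6087 and 4201 CPM (log2 -0.62, SE 0.23, adjusted p = 0.0934). The immediate value passed by DESeq2 (adjusted p = 0.0372), with the replicate number as a block (0.0221) and without day 14 replicate 4 (0.0358). The delayed call was lost with the block (adjusted p = 0.0693), and also without day 5 replicate 2 or 4 or without day 14 replicate 2, 4, 6, 7 or 8 (adjusted p up to 0.0677). The difference between the repair groups in the day effect was log2 -0.19 (SE 0.33) for Spp1 and 0.14 (SE 0.36) for Thbs1, and none of the 6 members tested passed for that interaction, beside 0.0223% of all genes.

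Postn in macrophages was higher at day 14 from a level close to 0. After immediate repair its median was 0.624 CPM at day 5 (0 to 3.43) and 8.80 CPM at day 14 (2.45 to 128), 7 of 8 day 14 libraries lay above every day 5 library, and the log2 fold change was 4.18 (SE 0.89, adjusted p = 0.00449). Without day 14 replicate 7, which had 127.9 CPM, it was 2.79 (adjusted p = 0.0128). After delay the medians were 0 and 9.66 CPM (log2 2.76, SE 1.03, adjusted p = 0.114, and 0.0217 without day 5 replicate 8). With the replicate number as a block this delayed value was larger and passed. Altogether 2 of 5 members tested passed after immediate repair (11.3% of all genes) and 2 of 5 after delay (6.41%). Fn1 was at log2 -0.39 (SE 0.25) and -0.53 (SE 0.37), and neither passed. Sparc had medians of 4.10 and 19.8 CPM after immediate repair (log2 1.55, SE 0.74, adjusted p = 0.189), and 6.45 and 22.8 CPM after delay (adjusted p = 0.479). Without the day 5 library highest in fibroblast markers, Sparc passed in both groups, at adjusted p 0.00862 without immediate replicate 4 and 0.00651 without delayed replicate 8. A day 14 library moved it the other way: Sparc was at 0.74 (adjusted p = 0.536) without immediate day 14 replicate 7 and at 0.58 (adjusted p = 0.651) without delayed day 14 replicate 4. Immediate Sparc passed with the replicate number as a block.

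Other markers moved in the same macrophage libraries. The fibroblast markers had summed medians of 20.7 and 80.7 CPM at days 5 and 14 after immediate repair and 19.5 and 68.8 CPM after delay. The libraries highest in them were immediate day 14 replicate 7 (1273 CPM), delayed day 5 replicate 8 (356.3 CPM) and immediate day 5 replicate 4 (338.1 CPM), which are among those that moved Sparc or Postn when left out. With their level as a covariate, an alternative added after the data were seen, no day call in macrophages remained, as Thbs1 was at -0.65 (adjusted p = 0.219) and -0.72 (0.175), Postn at 1.75 (0.2) and delayed Spp1 at -0.74 (0.0871). The marker level was itself higher at day 14 by the medians above, so these fits cannot fully tell the day and that level apart. Of the 6 platelet markers only 2 averaged 5 CPM or more in any macrophage group, and Pf4 and Ppbp alone were measured well enough to test. The sum of the 6 fell from 1572 to 3396 CPM at day 5 to 448 to 1228 CPM at day 14 over both repair groups, and Thbs1 is also a platelet granule protein. The dendritic cell markers went from 1036 to 4706 CPM to 6856 to 17840 CPM, with Cd74, H2-Ab1 and Itgax higher in both repair groups. Of the 7 macrophage markers 3 were lower at day 14 after immediate repair, namely Itgam (log2 -0.82), Cd14 (-0.71) and Cd68 (-0.30), and 1 after delay, Itgam (-0.89). Of the 2 endothelial markers tested, Pecam1 was lower at day 14 in both repair groups (log2 -1.17 and -1.64). The part of platelets, dendritic cells, endothelial cells and the macrophage markers in the member changes was not tested. Across the 32 macrophage libraries the genes most like Sparc were Col3a1 (Pearson r = 0.938), Col1a1 (0.908) and Dcn (0.903), and Col1a1 also led for Thbs2 (0.833) and Bgn for Postn (0.853). For Thbs1 they were led by Ube2j1 (0.827) and Gab1 (0.826), and for Spp1 by Pfn1 (0.726). These correlations share libraries and depth and carry no test.

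**Figure D3:**
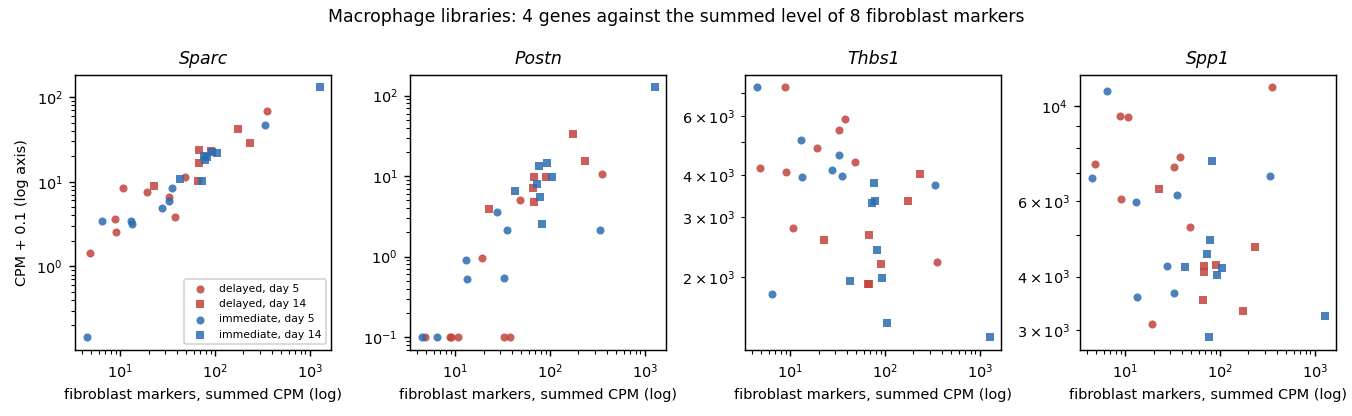
Each macrophage library's level of Sparc, Postn, Thbs1 and Spp1 (CPM + 0.1, log axis) against the summed CPM of 8 fibroblast markers (log axis), with immediate repair in blue, delayed in red, day 5 as circles and day 14 as squares. Sparc climbs along with the marker sum from 0.0458 to 131.4 CPM, Postn is at 0 in 8 day 5 libraries, and Thbs1 and Spp1 are at 1326 CPM or more in every library.

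In the Schwann cell fraction Sparc was higher at day 14 in both repair groups, and Postn and Tnc passed after immediate repair. Sparc after immediate repair had 79.8, 432.3 and 1145 CPM at day 5 (lowest, median, highest) and 1561, 1829 and 4205 CPM at day 14, with no overlap (log2 2.16, SE 0.42, adjusted p = 0.011). After delay it had 5.39, 224.5 and 715.5 CPM and then 647.9, 2722 and 3534 CPM, with 6 of 7 day 14 libraries above every day 5 library (log2 2.87, SE 0.62, adjusted p = 0.0142). Both Sparc calls were kept in every fit that left out a library, but the delayed one was lost with the replicate number as a block.

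Postn after immediate repair had 2.14, 236.2 and 399.5 CPM at day 5 and 886.1, 1082 and 5300 CPM at day 14, again without overlap (log2 3.19, SE 0.71, adjusted p = 0.0214, and 0.051 without day 5 replicate 2). The replicate number as a block also lost this call. After delay it had medians of 96.0 and 1306 CPM (log2 2.47, SE 0.87, adjusted p = 0.0828). Tnc after immediate repair had 38.4, 105.8 and 458.4 CPM and then 72.6, 727.3 and 2693 CPM, with 6 of 8 day 14 libraries above every day 5 library (log2 2.46, SE 0.65, adjusted p = 0.042). With a library left out, this call was kept only without day 5 replicate 5 or day 14 replicate 5 or 6, and it was lost in the other 12 such fits (adjusted p up to 0.0972). It was also lost with no filter, with sex as a covariate and with the replicate number as a block. After delay Tnc had medians of 105.2 and 331.3 CPM (log2 1.75, SE 0.83, adjusted p = 0.187).

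Thbs2 after delay had 0, 47.5 and 217.2 CPM at day 5 and 257.8, 364.2 and 1011 CPM at day 14. These groups did not overlap, yet the adjusted p was 0.0534 (log2 2.34, SE 0.72), and it was 0.025 by DESeq2. After immediate repair the medians were 369.9 and 356.5 CPM (log2 0.47, SE 0.40, adjusted p = 0.588). The repair by day interaction for Thbs2 was log2 1.87 (SE 0.86, adjusted p = 0.989 by edgeR), so the difference between the repair groups did not pass, nor did that of any of the 9 members tested, beside 0% of all genes.

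Spp1 was the member that fell in this fraction. After delay it had 238.7, 1073 and 2339 CPM at day 5 and 145.6, 309.2 and 547.1 CPM at day 14, all 7 day 14 libraries lying below the day 5 median (log2 -1.98, SE 0.41, adjusted p = 0.0124), and the call was kept in every fit without a library. After immediate repair it had medians of 452.5 and 324.4 CPM (log2 -1.04, SE 0.75, adjusted p = 0.509). In all, 3 of 9 members tested passed after immediate repair (3.81% of all genes) and 2 of 8 after delay (8.09%). Fn1 had log2 fold changes of -1.70 (SE 0.89) and -0.31 (SE 0.60), Thbs1 of 0.32 (SE 0.74) and -0.81 (SE 1.015), and Thbs4 of 0.44 (SE 1.11) and -0.08 (SE 1.06) in the 2 repair groups, none of which passed. Single libraries moved the values that did not pass: immediate Spp1 was at -0.37 without day 5 replicate 3, immediate Fn1 was at -0.24 without day 5 replicate 7, and delayed Thbs1 ran from -2.62 without day 14 replicate 4 to -0.08 without day 5 replicate 9. Thbs3, tested after immediate repair, was at 0.37 (SE 1.19), and Comp was too low to test in either sorted fraction.

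**Figure D4:**
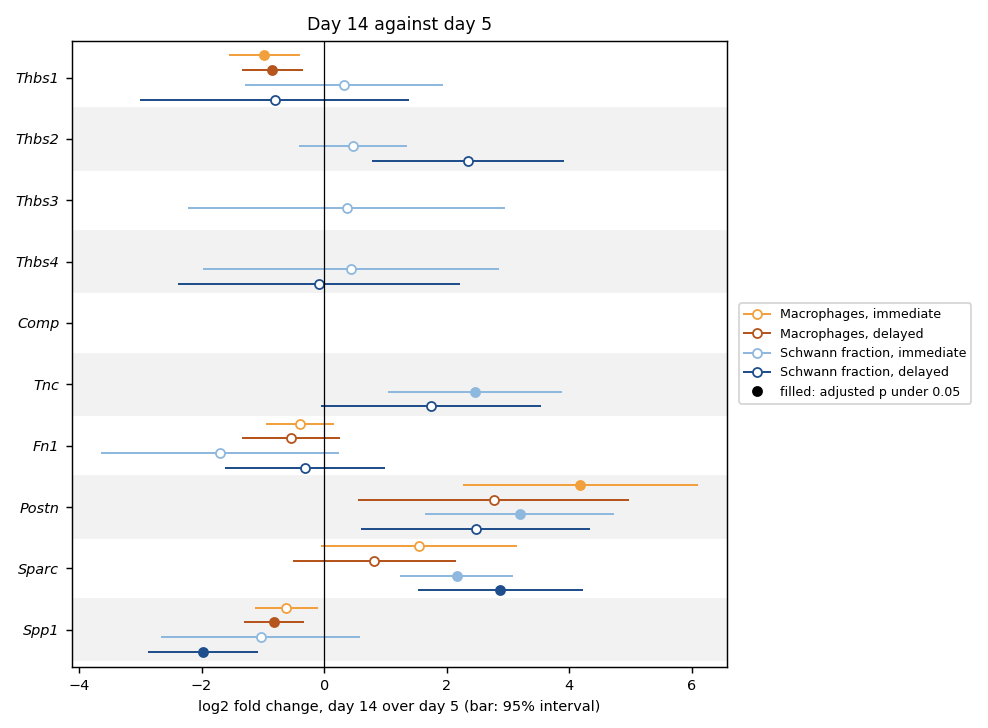
Log2 fold change of day 14 over day 5 for each member, with 95% intervals, in macrophages and the Schwann cell fraction after immediate and delayed repair, with filled points where the adjusted p is under 0.05 and no point where the gene was too low to test. Thbs1 and Spp1 lie to the left of 0 in macrophages, and Sparc, Postn and Tnc lie to the right in the Schwann cell fraction.

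The make-up of the Schwann cell fraction also differed between the days. After delay the Schwann cell markers summed to a median of 97.5 CPM (4.28 to 374) at day 5 and 1384 CPM (257 to 2154) at day 14, and after immediate repair to 474 CPM (74.9 to 862) and 624.8 CPM (341 to 1038). The fibroblast markers went from medians of 605 to 5079 CPM after delay and from 1591 to 7118 CPM after immediate repair, Col1a2 passing in both. The macrophage markers went from a median of 1518 CPM to 727 CPM after delay and from 426.1 to 914.1 CPM after immediate repair. The platelet markers went from a median of 262.5 CPM (37.3 to 1024) to 16.6 CPM (7.11 to 60.5) after delay, where both markers tested were lower, and from 54.8 to 38.9 CPM after immediate repair, where neither passed. With the Schwann marker level as a covariate, added after the data were seen, delayed Sparc was at 0.98 (adjusted p = 1), delayed Spp1 at -1.15 (adjusted p = 1) and immediate Tnc at 1.88 (adjusted p = 0.189), while immediate Sparc and Postn kept their calls. After delay the Schwann marker level itself rose between the days, so the fit there cannot fully tell the day and that level apart. The sort was meant to remove macrophages and Thy1.2+ fibroblasts, and the part of fibroblasts, macrophages and platelets was not tested. Of the 25 further matricellular genes 13 were tested at each repair, of which 0 passed after immediate repair and 1, Fbln5 (log2 3.99), after delay, beside 3.81% and 8.09% of all genes. Of 21 receptors tested 2 passed in each group, beside the same shares. Ptprz1, a receptor of tenascin-C, was higher in both groups (log2 5.51 and 4.04), Itga4 was lower after immediate repair (-1.09) and Stab1, which takes up SPARC, was lower after delay (-2.84).

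The fourth question was sex, for which stump samples gave 8 females and 8 males. None of the 10 members passed in the stump, beside 0.0654% of all genes, but 4 had an unadjusted p under 0.05, where 14.6% of all genes had, and all 4 were higher in females. Thbs4 had 70.8 to 222 CPM in the 4 delayed males, 253 to 854 CPM in the 5 delayed females, 282 to 403 CPM in the 4 immediate males and 321 to 715 CPM in the 3 immediate females. The delayed sexes did not overlap and the immediate sexes did, and the same held for Tnc and Thbs2. The share of all genes for which this held was not computed. The log2 difference, female over male, was 1.18 (SE 0.30, adjusted p = 0.219 by edgeR and 0.0167 by DESeq2). Tnc had 581 to 957.5 CPM in delayed males, 1035 to 1810 CPM in delayed females, 805 to 1326 CPM in immediate males and 989.5 to 2603 CPM in immediate females (log2 0.82, SE 0.19, adjusted p = 0.212 by edgeR and 0.0131 by DESeq2).

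Thbs2 and Postn followed, at log2 0.59 (SE 0.17, adjusted p = 0.241) and 0.89 (SE 0.36, adjusted p = 0.313). Thbs1 showed 0.01 (95% interval -0.26 to 0.29). Spp1 was at log2 -0.45 (SE 0.41), Fn1 at 0.27 (SE 0.18), Comp at 0.23 (SE 0.56), Thbs3 at 0.18 (SE 0.17) and Sparc at 0.16 (SE 0.18). In the stump the repair by sex term passed for no member (0% of all genes). It was 0.97 (SE 0.55, adjusted p = 1 by edgeR) for Thbs4 and 2.37 (SE 0.95, adjusted p = 1 by edgeR) for Comp, the one member under 0.05 unadjusted in the stump, beside 2.22% of all genes. In macrophages 2 of the 4 members tested were under 0.05 unadjusted for that term, beside 4.19% of all genes, Fn1 at 1.22 (SE 0.58) and Sparc at 3.44 (SE 1.50), both at an adjusted p of 0.98 by edgeR, and in the Schwann cell fraction 0 of 8 were. In day 5 macrophages 0 of 4 members tested passed for sex, beside 25.1% of all genes, and in the Schwann cell fraction 0 of 8, beside 7.02%. Whether the sexes were handled together is not given in the sources used here.

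**Figure D5:**
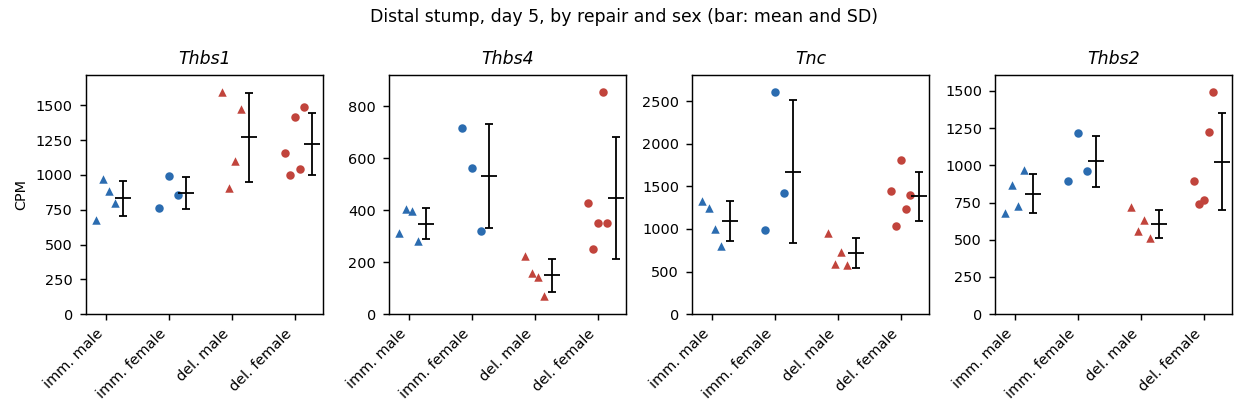
Level (CPM, linear axis from 0) of Thbs1, Thbs4, Tnc and Thbs2 in each stump library by repair and sex, with males as triangles, females as circles and the mean and SD beside each set. Thbs1 is higher after delay in both sexes, and the 4 delayed males have the lowest Thbs4 values, 70.8 to 222 CPM.

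Among themselves the stump levels fell into loose sets across the 16 libraries. Fn1 and Sparc had a Pearson correlation of 0.844 and Postn and Sparc of 0.805, while Thbs2 ran with Fn1 (0.757), Thbs4 (0.746) and Tnc (0.691). Thbs1 correlated with no other member above 0.273, and Spp1 was negative with Postn (-0.57). The genes most like each member were Aspn for Postn (0.974), Slc38a10 for Sparc (0.933), Fdft1 for Spp1 (0.93), Txndc5 for Thbs2 (0.909), Aph1b for Thbs4 (0.906), Col23a1 for Comp (0.899), Fbn1 for Fn1 (0.897), Zfp207 for Thbs1 (0.874), Fam86 for Thbs3 (0.829) and Mrpl47 for Tnc (0.801). Per kilobase Sparc was the highest member in the stump, at 759.2 ± 176.6 CPM per kb (SD, n = 9) after delay and 724.7 ± 191.9 (SD, n = 7) after immediate repair. Fn1, Spp1 and Postn came next after delay, at 361.1 ± 100.6, 348.2 ± 323.1 and 325.7 ± 191.9 CPM per kb, and did not differ beyond their spread. Thbs3 and Comp were the lowest in both, at 21.8 ± 5.26 and 5.16 ± 4.63 CPM per kb after delay.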

How the data were processed

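Gene-level estimated counts were deposited by the authors in 3 tables (distal stump, macrophages, Schwann cells), 1.18%, 0.952% and 0.951% of the values not being whole. The submitters' processing notes name cutadapt 1.8, TopHat2 2.1.1, Cufflinks 2.2.1 and Cuffnorm, and build mm10. Sorted cells were amplified with a kit that does not mark strand, so overlapping genes on opposite strands cannot be told apart there; stump libraries were depleted of ribosomal RNA. The estimated counts were rounded, and CPM were taken from library totals.

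A gene entered a comparison when 6 or more of its libraries reached 5 CPM, and was tested with edgeR 4.0.16 (R 4.3.3; TMM scaling, quasi-likelihood F-test, Benjamini-Hochberg over all genes tested, threshold 0.05), separately within each table except for the cell type comparisons, which combine 2 tables. Sex was tested with repair as a covariate. The SE was taken from the log2 fold change and its F value (size over root F). Alternatives were DESeq2 1.42.0, library size scaling only, no filter, sex or replicate as a term and leaving out each library in the repair and day comparisons. The marker covariates, the left-out fits of the day comparisons and the set without 3 macrophage libraries were added after the data were seen. The code was tested on simulated data. Each animal gave its own bridge, and n counts animals. No 2 libraries were identical (0 of 3081 pairs).

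The rule names all 10 members in every comparison; for sex and interactions within sorted cells and for repair by sex in the stump, members not singled out are given as counts. It also names up to 3 genes of each further list by smallest p. For likeness, up to 3 genes with the highest correlation of log2(CPM + 1) are named. The members and lists were chosen with earlier results of these data known. In cell type comparisons the libraries pair by animal (16 and 15 animals), with correlations of paired deviations from 0.0047 to 0.288, and the animal as a block changed no call. Figures were drawn with matplotlib 3.10.9.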

Additional observations from a re-analysis of the deposited data

Results flagged for a closer look

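Within groups of 4 to 10 libraries, a gap test at the 95% level marked 9 of 74 member levels, where chance would mark about 1 in 20. In macrophages, Thbs1 in immediate day 5 replicate 6 was low at 1780 CPM (nearest 3746). Fn1 in delayed day 14 replicate 8 was high at 1446 CPM (nearest 548.1), as was Postn in immediate day 14 replicate 7 at 127.9 CPM (nearest 14.7). Sparc was high in that same library at 131.4 CPM (nearest 22.5) and in delayed day 5 replicate 8 at 69.33 CPM (nearest 11.1), and both of these libraries were the highest of their groups for fibroblast markers, at 1273 and 356 CPM summed. In the Schwann cell fraction, delayed day 5 replicate 4 was low for Thbs2 at 0 (nearest 18.6 CPM) and for Sparc at 5.392 CPM (nearest 68.8), and its Schwann cell markers summed to 4.28 CPM, the lowest of the group. Postn in immediate day 5 replicate 3 was low at 2.14 CPM (nearest 61.8). In the stump, Spp1 in immediate replicate 2 was high at 1510 CPM (nearest 697).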

How the results depend on the processing

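Of 27 member calls, DESeq2 and library size scaling kept 27, and no filter and sex as a covariate kept 26 each, Tnc (day, immediate, Schwann cell fraction) being lost in both (adjusted p = 0.0556 and 0.0576). Library size scaling and sex as a covariate each also passed 1 member value that the reported fit did not call. The number of members past the threshold was 2 with DESeq2 for stump repair and for stump sex, 4 for immediate macrophage day and 4 for delayed Schwann fraction day. The replicate number links different animals. In every group the lower numbers were males and the higher ones females, so a replicate block takes in sex. Pairs of the same number correlated above 0.1 ran from 1 of 7 for stump repair to 6 of 7 and 7 of 8 for macrophage repair at days 14 and 5. In no comparison were all pairs above 0.1. The replicate block gave 4 for immediate macrophage day, 1 for immediate and 1 for delayed Schwann fraction day. It kept 6 of the 10 repair and day calls and lost delayed Spp1 in macrophages (adjusted p = 0.0693), immediate Postn (0.0614) and Tnc (0.145) and delayed Sparc (0.0625) in the Schwann fraction day comparisons. It also passed immediate Sparc (2.17, adjusted p = 0.0395), immediate Spp1 (-0.57, 0.0221) and delayed Postn (5.605, 0.0391) in the macrophage day comparisons. The marker covariates, whose levels themselves moved between the days there, gave 0 for both macrophage day comparisons and 0 for delayed Schwann fraction day. With each library left out in turn, the number ran from 1 to 2 (stump repair), 2 to 3 and 0 to 4 (immediate and delayed macrophage day), and 1 to 3 and 2 to 4 (immediate and delayed Schwann fraction day). The cause of these changes was not tested, and the share of all genes that passed in each of these fits is not given here. In the cell type comparisons, for which single libraries were not left out, no call changed with DESeq2, library size scaling, no filter, sex or the animal as a term, or without the 3 macrophage libraries highest in fibroblast markers. Values that were not called changed sign, from as far as -1.40 for Fn1 (Schwann fraction repair day 5) and -1.42 for Postn (macrophage repair by day) in the reported fit. With the replicate block, Fn1 -0.0764 and Sparc -0.00300 (stump repair), Fn1 -0.0233 (macrophage repair day 14), Postn -0.56 (Schwann fraction repair day 5), Fn1 -0.0992 and Thbs1 -0.54 and Thbs2 -0.11 (Schwann fraction repair day 14), Fn1 0.11 and Thbs4 0.85 (delayed Schwann fraction day), Postn 0.26 and Thbs2 0.23 (macrophage repair by day). With sex as a covariate, Sparc -0.00190 and Thbs1 0.0354 (macrophage repair day 5), Spp1 -0.0106 (macrophage repair day 14), Postn -0.15 (Schwann fraction repair day 5), Thbs4 0.0202 (delayed Schwann fraction day), Postn 0.13 (macrophage repair by day). With library size scaling only, Thbs1 0.0795 (macrophage repair day 5), Spp1 -0.0187 (macrophage repair day 14), Fn1 -0.0228 (Schwann fraction repair day 14), Thbs4 0.0477 (delayed Schwann fraction day), Thbs1 -0.00420 (stump sex), Thbs2 -0.0959 (Schwann fraction repair by sex). With DESeq2, Postn 0.47 (macrophage repair day 14), Thbs2 -0.00370 (Schwann fraction repair by sex). With the fibroblast marker level as a covariate, Postn 0.27 and Sparc 0.27 and Spp1 -0.0859 (macrophage repair day 14). With the Schwann marker level as a covariate, Fn1 0.40 and Sparc 0.43 and Spp1 -0.61 and Thbs4 0.11 and Tnc 0.48 (Schwann fraction repair day 5), Fn1 -0.0590 and Thbs2 -0.0982 (Schwann fraction repair day 14). With each library left out, the ranges of the members that changed sign were, for stump repair, Fn1 -0.0212 to 0.14, Spp1 -0.74 to 0.0487, Thbs2 -0.23 to 0.00370, Thbs3 -0.12 to 0.0310. For macrophage repair day 5, Sparc -0.87 to 1.46, Thbs1 -0.14 to 0.16. For macrophage repair day 14, Fn1 -0.33 to 0.20, Postn -1.42 to 0.49, Sparc -0.73 to 0.32, Spp1 -0.13 to 0.15. For Schwann fraction repair day 5, Fn1 -1.61 to 0.0647, Postn -0.23 to 0.41, Spp1 -0.16 to 0.64, Thbs4 -1.33 to 0.20. For Schwann fraction repair day 14, Fn1 -0.52 to 0.41, Thbs1 -1.004 to 1.12, Thbs2 -0.24 to 0.22. For immediate Schwann fraction day, Thbs4 -0.32 to 1.13. For delayed Schwann fraction day, Thbs4 -0.40 to 0.73. In macrophages Thbs2, Thbs3, Thbs4, Comp and Tnc were too low for the 5 CPM filter in the repair, day and sex comparisons and were not tested there.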
